A study of Mus musculus with 8 samples.

Results

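The interleukin-6 (IL-6) family and myeloid growth cytokines described here are 9 genes chosen by symbol: the ligands Il6, Lif and Il11, the receptor chains Il6st, Lifr and Osmr, the alarmin Il33, and the macrophage growth factors Csf1 and Il34. They are 9 of 22180 genes tested, and each was read by 1 probe set. Expression was measured on Affymetrix arrays in primary hepatic stellate cells of BALB/c mice, with 2 arrays in each of 4 groups. Cultured cells had spent 10 days on plastic in serum-containing medium. Activated cells from injured livers were taken, without seeding, from mice exposed to carbon tetrachloride (CCl4), a liver toxin, over 4 weeks or 2 weeks. Quiescent cells came from healthy mice and were taken at 0 hours, also without seeding. The labels carry the same treatment text for all 8 samples, valproic acid (2.5 mM) once cells are seeded, although 3 of the 4 groups were never seeded, so it is not settled here whether the cultured cells were exposed to it. Nothing in the labels ties the 2 arrays of a group to different mice, so the spread behind each p-value is that between these samples and may be technical.

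IL-6, LIF and IL-11 are secreted by many stromal cells and signal through receptor complexes that share gp130, the product of Il6st. IL-6 and IL-11 bind their own alpha receptors first, whereas LIF binds the LIF receptor and oncostatin M can bind the oncostatin M receptor. gp130 complexes activate Janus kinases and STAT3, and STAT3 induces Socs3, which inhibits gp130. IL-33 is a nuclear cytokine released from damaged cells that signals through Il1rl1 and Il1rap, and CSF1 and IL-34 are the ligands of the macrophage receptor Csf1r.

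The values are log2 levels after robust multi-array averaging (RMA), so a difference of 1 is a 2-fold change. To judge background, the guide was the mean level of 1394 olfactory and vomeronasal receptor genes, with its median at 3.23 and its 95th percentile at 4.69 log2 units. Il6 lay above that percentile on 7 of 8 arrays and the other 8 genes on all 8. The stellate list (14 genes) had medians of 7.31 and 6.63 in culture and 10.49 and 10.49 at 4 weeks. It had 10.23 and 10.34 at 2 weeks, and 10.60 and 10.89 in quiescent cells. In culture 12 of the 14 fell (all genes: 10.3%), and its members Colec10 and Colec11 were at or under the guide. At 4 weeks 8 fell and 1 rose (all genes: 4.67% and 4.04%), and at 2 weeks 6 fell and 1 rose (2.43% and 2.34%). The activated stellate list (11 genes measured) had medians of 11.43 and 11.42 in culture and 7.33 and 8.14 in quiescent cells. They were 11.24 and 11.37 at 4 weeks and 11.48 and 11.37 at 2 weeks. Of the 11, 9 rose in culture (all genes: 12.9%), 11 at 4 weeks and 10 at 2 weeks. Markers of several other liver cells moved with the groups, although not those of every type. The hepatocyte list (12 genes) had medians of 4.73 and 4.95 in culture, 6.50 and 6.03 at 4 weeks, 7.06 and 7.85 at 2 weeks, and 9.05 and 7.81 in quiescent cells. Alb, Serpina1b, Fgb, Fgg and Tat were at or under the guide in culture, whereas in each other group Serpina1b alone was. The log2 of the hepatocyte list's summed level ran from 8.81 to 9.0 in culture, 10.95 to 11.26 at 4 weeks, 12.22 to 12.87 at 2 weeks, and 13.40 to 14.19 in quiescent cells. The sinusoidal endothelial list (12 genes) had summed levels of 9.22 to 9.39 in culture, 10.66 to 11.11 at 4 weeks, 11.43 to 11.78 at 2 weeks, and 12.86 to 13.82 in quiescent cells, with Clec4g, Kdr and Tek at or under the guide in culture. The macrophage list (12 genes) had summed levels of 10.21 to 10.48 in culture, 9.92 to 9.95 at 4 weeks, 11.43 to 11.69 at 2 weeks, and 11.50 to 11.84 in quiescent cells, with Cd163 at or under the guide in culture and at 4 weeks. The monocyte and neutrophil list (9 genes) had summed levels of 8.14 to 8.25 in culture, 9.94 to 10.32 at 4 weeks, 10.51 to 11.60 at 2 weeks, and 10.23 to 11.90 in quiescent cells. Its members at or under the guide were Ly6c2, Ly6g and Elane in culture, Ly6g and Elane at 4 weeks, and Ly6g at 2 weeks. The portal fibroblast and mesothelial list (8 genes measured) had summed levels of 8.04 to 8.80 in culture, 9.95 to 10.09 at 4 weeks, 10.00 to 10.18 at 2 weeks, and 8.83 to 8.91 in quiescent cells, with Lrrn4 and Upk1b at or under the guide in every group. Of the lymphocyte list (11 genes measured), 0 were called against quiescent cells in any group (all genes: 23.2% in culture, 8.71% at 4 weeks, 4.77% at 2 weeks). Of the cholangiocyte list (5 genes measured), 1 rose and 1 fell in culture, and 0 were called at either CCl4 time. Of the mast cell and basophil list (8 genes), 7 were at or under the guide in every group. The first quiescent array stood above the second for the neutrophil gene S100a8 (11.10 and 9.20), the acute phase genes Saa3 (11.69 and 8.48) and Lcn2 (10.55 and 8.84), and the hepatocyte gene Tat (9.22 and 6.92), genes singled out after their values were seen. Between these 2 arrays the macrophage median went the other way (7.62 and 8.15), as did the stellate median, while the hepatocyte and endothelial medians were higher on the first. The part of the other liver cells in the results was not tested, and fewer cells of a type and less RNA per cell cannot be told apart.

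**Figure D1:**
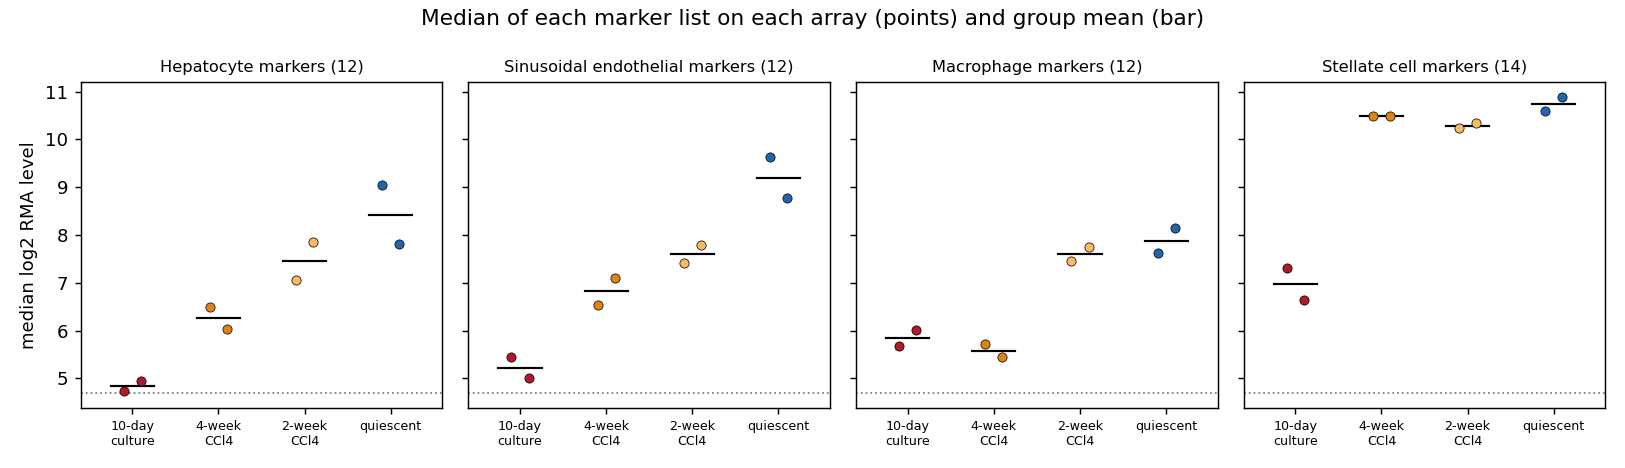
Median log2 RMA level of the marker genes of each cell type on each array (points) by group, with the dotted line at the 95th percentile of the receptor guide genes. The hepatocyte and endothelial medians were lowest in culture, the endothelial median was highest in quiescent cells, and the macrophage median was lower in culture and at 4 weeks than at 2 weeks or in quiescent cells.

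The sequences just before the transcription starts of the 4 genes whose levels rose in at least 1 activated group are shown with the motif matches they hold. They are RefSeq windows of 250 bases, written 5′ to 3′ on the gene's strand, on assembly GRCm38.p6. Of the 9 genes, 8 matched an entry, 3 of them with more than 1 start. The Il6 window is chr5:30012864-30013113 on the plus strand, Lif is chr11:4257318-4257567 on the plus strand, Il11 is chr7:4778142-4778391 on the minus strand, and Csf1 is chr3:107760470-107760719 on the minus strand. Capitals mark matches to AP-1 (TGANTCA) or to the NF-kappaB consensus.
Il6: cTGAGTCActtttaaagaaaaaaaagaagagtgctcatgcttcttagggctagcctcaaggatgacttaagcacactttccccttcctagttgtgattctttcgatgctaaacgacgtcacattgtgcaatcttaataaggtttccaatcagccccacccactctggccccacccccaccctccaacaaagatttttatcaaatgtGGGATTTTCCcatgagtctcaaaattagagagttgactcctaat
Lif: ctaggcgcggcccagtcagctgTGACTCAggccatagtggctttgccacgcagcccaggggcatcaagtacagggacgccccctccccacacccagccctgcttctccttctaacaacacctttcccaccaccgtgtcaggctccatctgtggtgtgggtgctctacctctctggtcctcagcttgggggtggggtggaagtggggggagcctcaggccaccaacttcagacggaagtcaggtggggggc
Il11: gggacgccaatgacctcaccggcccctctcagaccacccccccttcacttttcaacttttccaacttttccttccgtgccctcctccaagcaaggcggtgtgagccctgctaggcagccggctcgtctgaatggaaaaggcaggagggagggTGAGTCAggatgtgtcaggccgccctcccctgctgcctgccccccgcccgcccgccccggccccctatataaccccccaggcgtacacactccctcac
Csf1: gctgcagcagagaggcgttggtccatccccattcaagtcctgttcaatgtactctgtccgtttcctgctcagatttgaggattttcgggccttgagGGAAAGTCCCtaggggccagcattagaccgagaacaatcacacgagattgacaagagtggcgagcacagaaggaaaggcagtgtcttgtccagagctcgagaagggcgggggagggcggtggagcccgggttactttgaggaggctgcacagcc

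The AP-1 letters stood at positions -249 to -243 of Il6, -228 to -222 of Lif and -98 to -92 of Il11, counted from the start. Of all 32851 RefSeq windows of that length, 6.75% hold them. An NF-kappaB match stood at -44 to -35 of Il6 and at -154 to -145 of Csf1, and 3.90% of windows hold one. The other window of Il11 held no match. Both windows of Il33 held the TEAD letters GGAATG or their complement, found in 12.6% of windows, and the windows of Il6st, Lifr and Osmr held none of the 4 motifs. The fourth motif, the STAT letters TTC and GAA with 3 bases between them, was in no window of these genes and in 7.02% of all windows. Both strands were searched, and no matches overlapped.

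In 10-day culture, 3 of the 9 genes rose against quiescent cells (Il6, Lif and Csf1) and 4 fell (Lifr, Il34, Il33 and Il6st), where 23.2% of all genes were called in that comparison (12.9% up and 10.3% down). At 4 weeks of CCl4, 3 rose (Il6, Lif and Il11) and 2 fell (Lifr and Il34), against 8.71% of all genes (4.04% up and 4.67% down). At 2 weeks of CCl4, Il6 rose and Lifr and Il34 fell, against 4.77% of all genes (2.34% up and 2.43% down). These comparisons share the 2 quiescent arrays. The median log2 fold change of the 9 genes was -1.22 in culture, 0.18 at 4 weeks and -0.21 at 2 weeks, beside 0.01, 0.00 and 0.00 over all genes. Without the second 4-week array, 2 genes were called at 4 weeks instead of 5.

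**Figure D2:**
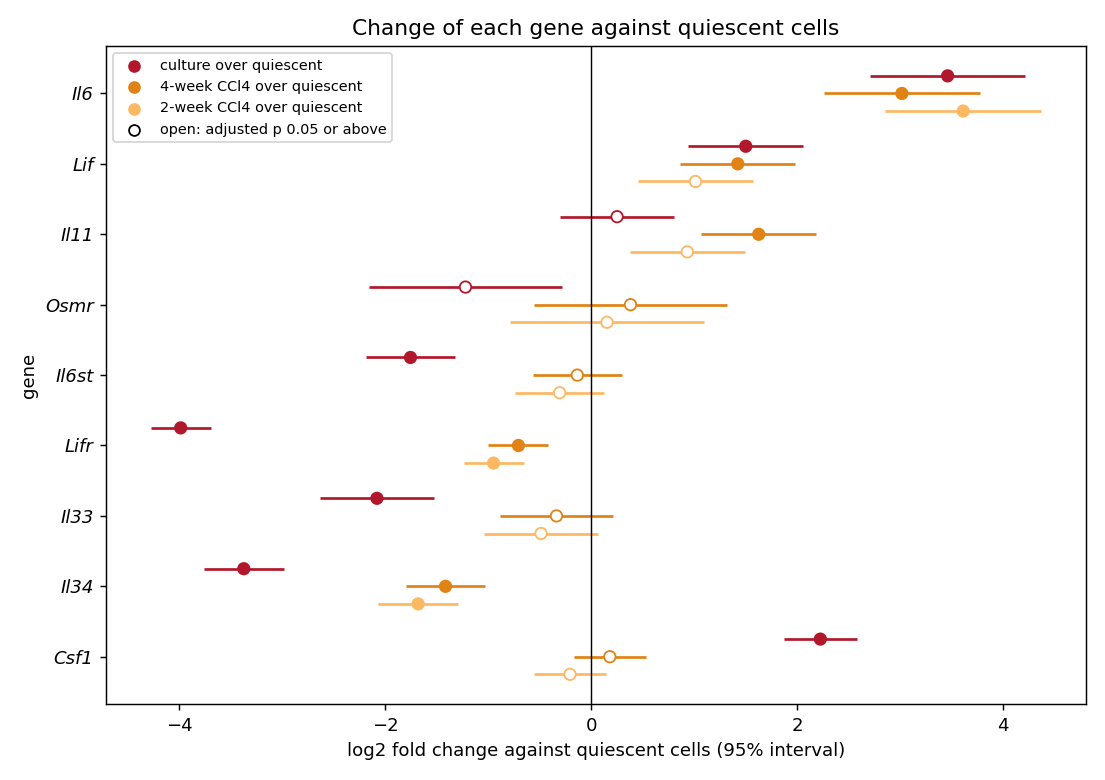
Log2 fold change of each gene over quiescent cells with its 95% confidence interval from limma, for culture, 4-week CCl4 and 2-week CCl4. Filled points passed an adjusted p of 0.05. Il6 lies to the right of 0 in all 3 groups, Lifr and Il34 to the left in all 3, and Csf1 has a filled point in culture and open points at both CCl4 times.

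Il6, the pleiotropic ligand that drives the hepatic acute phase response, was higher in every activated group. Its log2 level was 8.45 and 8.35 in culture, 7.45 and 8.46 at 4 weeks of CCl4, 8.47 and 8.63 at 2 weeks, and 5.33 and 4.55 in quiescent cells. All 6 activated arrays lay above both quiescent arrays, and the first 4-week array was the lowest of the 6. The second quiescent array was under the guide of 4.69, so the folds rest on a reference near background. The log2 fold change was 3.46 ± 0.33 in culture (SE, 11.0-fold, limma adjusted p = 0.000112), 3.02 ± 0.33 at 4 weeks (8.10-fold, adjusted p = 0.00108) and 3.61 ± 0.33 at 2 weeks (12.2-fold, adjusted p = 0.000728). Each call held in all 8 fits that left out 1 array. Culture and the mean of both CCl4 times differed by 0.15, with an interval of -0.51 to 0.80 (limma adjusted p = 0.808).

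Lif, a ligand best known for keeping mouse stem cells undifferentiated, rose in culture and at 4 weeks. On the log2 scale Lif stood at 7.15 and 7.55 in culture, 7.13 and 7.42 at 4 weeks, 6.79 and 6.94 at 2 weeks, and 5.49 and 6.21 in quiescent cells. Every activated array was above both quiescent arrays, and culture and 4 weeks overlapped. The log2 fold change was 1.5 ± 0.25 in culture (2.83-fold, limma adjusted p = 0.00223) and 1.42 ± 0.25 at 4 weeks (2.68-fold, adjusted p = 0.00897). The 4-week call was lost without the second 4-week array (adjusted p = 0.0836). At 2 weeks the log2 fold change was 1.01 ± 0.25 and missed the threshold (limma adjusted p = 0.0540), although it passed without the second quiescent array (adjusted p = 0.00793).

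Il11, a ligand that drives fibroblast activation in several mouse organs, was highest in cells from injured livers. Il11 read 5.37 and 5.05 log2 units in culture, 6.46 and 6.71 at 4 weeks, 6.28 and 5.50 at 2 weeks, and 4.90 and 5.01 in quiescent cells. The 4 groups did not overlap, although the second 2-week array lay close to culture. Quiescent and culture levels were not far above the guide of 4.69. The summed log2 level of the portal fibroblast and mesothelial list was also higher at both CCl4 times (9.95 to 10.18). That sum was 8.04 to 8.80 in culture and 8.83 to 8.91 in quiescent cells. The list's median log2 fold change against quiescent cells was only 0.19 at 4 weeks and 0.06 at 2 weeks. At each CCl4 time 2 of its 8 genes were called higher (all genes: 4.04% at 4 weeks and 2.34% at 2 weeks). At each, 3 of the 8 had a negative fold change. The count of 2 was smaller without the first 4-week array at 4 weeks, and without either 2-week array at 2 weeks. The list's part in the Il11 values was not tested. At 4 weeks Il11 was higher than in quiescent cells by 1.63 ± 0.24 on the log2 scale (3.09-fold, limma adjusted p = 0.00476), a call lost without the second 4-week array (adjusted p = 0.0517). The 2-week value of 0.93 ± 0.24 (limma adjusted p = 0.0716) passed only without the second 2-week array (1.32, adjusted p = 0.0290). In culture it was 0.25 ± 0.24 (adjusted p = 0.566). Culture was lower than CCl4 by a log2 difference of -1.03 ± 0.21 (limma adjusted p = 0.00810), which was lost without the second culture array (-0.87, adjusted p = 0.0900).

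**Figure D3:**
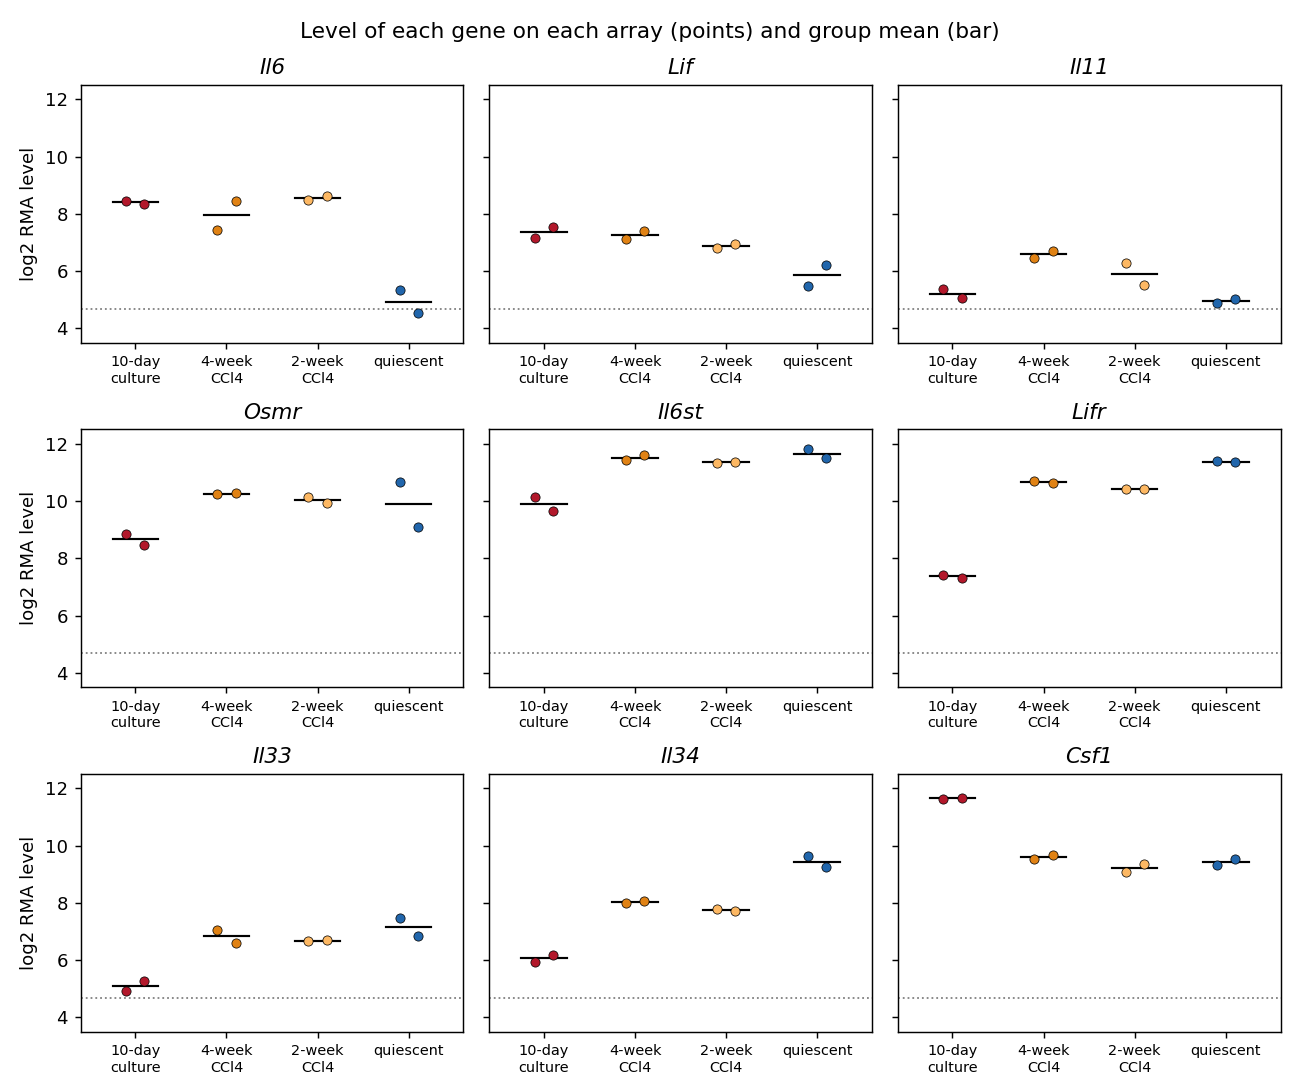
Log2 RMA level of the 9 genes on each of the 8 arrays (points) with the group mean (bar), for culture, 4-week CCl4, 2-week CCl4 and quiescent cells; the dotted line is the 95th percentile of the receptor guide genes. Quiescent arrays are lowest for Il6 and Lif and highest for Lifr and Il34, and culture arrays are highest for Csf1.

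Of the 9 measured ligands of the family, which include these 3, 2 rose in culture, 3 at 4 weeks and 1 at 2 weeks, and none fell (all genes: 12.9%, 4.04% and 2.34% up). The other 6 ligands were not called against quiescent cells. Osm, which encodes oncostatin M and is made mainly by myeloid cells, had log2 levels of 4.19 and 4.08 in culture, 4.37 and 4.63 at 4 weeks, 4.38 and 4.66 at 2 weeks, and 4.30 and 4.51 in quiescent cells, all under the guide. Clcf1, a ligand of the ciliary neurotrophic factor receptor, was higher in culture than in CCl4 cells by 0.96 ± 0.26 on the log2 scale (limma adjusted p = 0.0278), a call lost in 4 of the 8 fits that left out an array (either 2-week array, the first 4-week or the second culture array).

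The receptor chains Il6st and Lifr fell in culture, and Osmr missed the threshold. Il6st, the shared signalling chain, had log2 levels of 10.14 and 9.66 in culture, 11.43 and 11.60 at 4 weeks, 11.33 and 11.36 at 2 weeks, and 11.81 and 11.50 in quiescent cells. Both culture arrays lay below all others, and 4-week and quiescent cells overlapped. Il6st changed by a log2 value of -1.76 ± 0.19 in culture (3.38-fold lower, limma adjusted p = 0.000221), held in all 8 fits that left out 1 array. It was -0.14 ± 0.19 at 4 weeks (adjusted p = 0.796) and -0.31 ± 0.19 at 2 weeks (adjusted p = 0.495). Culture was also below CCl4, by -1.53 ± 0.16 (limma adjusted p = 0.000238).

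Lifr, which encodes the LIF receptor and is also expressed by hepatocytes, had the largest drop of the 9 genes in culture. Lifr measured 7.43 and 7.33 log2 units in culture, 10.70 and 10.63 at 4 weeks, 10.41 and 10.42 at 2 weeks, and 11.38 and 11.35 in quiescent cells. The 4 groups did not overlap, in the order quiescent, 4 weeks, 2 weeks, culture. In culture it was 15.9-fold lower than in quiescent cells, a log2 fold change of -3.99 ± 0.13 (limma adjusted p = 2.87e-07). It was -0.71 ± 0.13 at 4 weeks (adjusted p = 0.0111) and -0.95 ± 0.13 at 2 weeks (adjusted p = 0.00532). The 4-week call was lost without the first (adjusted p = 0.0701) or the second (adjusted p = 0.0871) 4-week array. Culture was 8.94-fold lower than CCl4 (limma adjusted p = 4.19e-07).

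Osmr, which encodes the oncostatin M receptor, differed most of the 9 genes between the quiescent arrays. Its log2 level was 8.85 and 8.47 in culture, 10.24 and 10.29 at 4 weeks, 10.13 and 9.94 at 2 weeks, and 10.68 and 9.08 in quiescent cells. Culture lay below every other array, whereas the CCl4 arrays fell between the 2 quiescent ones. In culture Osmr changed by a log2 value of -1.22 ± 0.41 (limma adjusted p = 0.0662), with -2.02 without the second quiescent array (adjusted p = 0.000178) and -0.42 without the first (adjusted p = 0.216). At 4 weeks it was 0.38 ± 0.41 (limma adjusted p = 0.717), but 1.18 without the first quiescent array (adjusted p = 0.0123) and -0.42 without the second. At 2 weeks it was 0.15 ± 0.41 (limma adjusted p = 0.919), but 0.95 without the first quiescent array (adjusted p = 0.0433) and -0.64 without the second. Culture was lower than CCl4 by -1.49 ± 0.36 (limma adjusted p = 0.0172), lost in 5 of 8 fits that left out an array (without either culture array, either 4-week array or the first 2-week array).

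Of the 7 measured receptor chains of the family, 5 fell in culture and none rose (all genes: 10.3% and 12.9%). At each CCl4 time 1 fell, Lifr (all genes: 4.67% at 4 weeks and 2.43% at 2 weeks). Without either 4-week array none fell at 4 weeks, without the second quiescent array 2 fell at each CCl4 time, and without the first 1 rose and 1 fell at each. Il6ra, the IL-6 alpha receptor, had log2 levels of 5.23 and 5.85 in culture, 6.41 and 6.79 at 4 weeks, 6.32 and 6.31 at 2 weeks, and 6.81 and 6.50 in quiescent cells. It fell in culture by 1.11 on the log2 scale (SE 0.23, limma adjusted p = 0.00675). Cntfr, the ciliary neurotrophic factor receptor, changed by -1.76 ± 0.30 in culture (limma adjusted p = 0.00290). It changed by -0.63 ± 0.30 at 4 weeks (adjusted p = 0.294) and -1.16 ± 0.30 at 2 weeks (adjusted p = 0.0709), but passed at both without the second quiescent array (-1.15, adjusted p = 0.0143, at 4 weeks and -1.67, adjusted p = 0.00301, at 2 weeks). Il27ra, an IL-27 receptor chain, changed by -0.87 ± 0.24 (adjusted p = 0.0313), lost without the second culture array (adjusted p = 0.210) or the first quiescent one (adjusted p = 0.126). Against CCl4, 6 of the 7 were lower in culture, beside 8.72% of all genes. The count of 6 was smaller without the second 4-week array or without either culture array.

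Of 9 measured kinases, STATs and adaptors, 3 fell and 1 rose in culture, where 10.3% of all genes fell and 12.9% rose. At 4 or 2 weeks limma called none (all genes: 8.71% and 4.77%). The 4-week values with the smallest p were Gab1 at -0.65 ± 0.20, Jak1 at -0.50 ± 0.18 and Grb2 at -0.41 ± 0.16. Their limma adjusted p-values were 0.0919, 0.148 and 0.181. Jak1, a kinase bound to gp130, had log2 levels of 9.29 and 9.25 in culture, 9.99 and 9.86 at 4 weeks, 10.05 and 10.06 at 2 weeks, and 10.68 and 10.16 in quiescent cells (culture -1.15 ± 0.18, limma adjusted p = 0.00169). Stat3 had 8.65 and 8.46 in culture, 9.81 and 9.64 at 4 weeks, 9.58 and 9.76 at 2 weeks, and 9.82 and 9.20 in quiescent cells. It changed by -0.95 ± 0.21 in culture (adjusted p = 0.00992), lost without the second culture array (adjusted p = 0.0702). Gab1, a docking adaptor, fell in culture by 1.54 on the log2 scale (SE 0.20, limma adjusted p = 0.000675). Ptpn11, a phosphatase recruited to gp130, was 0.50 ± 0.15 higher (adjusted p = 0.0383), a call lost in 6 of 8 fits that left out an array (all but those without a 4-week array). Jak2 had 8.20 and 7.85 in culture, 8.37 and 7.96 at 4 weeks, 8.13 and 8.23 at 2 weeks, and 8.67 and 8.19 in quiescent cells, and was not called against quiescent cells.

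Genes known as STAT3 feedback or targets were mostly lower in culture: 11 of 16 fell and 2 rose, with a median log2 fold change of -0.96. Over all genes, 10.3% fell and 12.9% rose there. Socs3, the feedback inhibitor of gp130, had log2 levels of 6.17 and 6.32 in culture, 10.23 and 10.39 at 4 weeks, 10.53 and 10.73 at 2 weeks, and 11.48 and 11.12 in quiescent cells. No groups overlapped. Socs3 changed by -5.05 ± 0.17 in culture (limma adjusted p = 3.31e-07) and -0.99 ± 0.17 at 4 weeks (adjusted p = 0.00799), and the 4-week call was lost without the first 4-week array (adjusted p = 0.0803). A dimmer Socs3 probe set gave -3.09 in culture (adjusted p over all probe sets = 0.000205) and -0.66 at 4 weeks (0.132). Cebpd and Junb, stress-responsive transcription factors, had log2 fold changes of -3.39 ± 0.18 and -2.41 ± 0.15 in culture (limma adjusted p = 3.84e-06 and 1.14e-05). Cebpd was also lower at 4 weeks (-1.21 ± 0.18, limma adjusted p = 0.00394) and 2 weeks (-0.80 ± 0.18, adjusted p = 0.0374). Cish, another gene of the list, was lower at 4 weeks (-1.02 ± 0.20, limma adjusted p = 0.0173). A dimmer Cish probe set was not called there (-0.27, adjusted p over all probe sets = 0.434). The 2-week Cebpd call and the Cish call did not hold in every fit that left out an array. Timp1, an inhibitor of matrix metalloproteinases, went the other way, with a log2 fold change of 3.67 ± 0.26 in culture (adjusted p = 2.07e-05), 3.75 ± 0.26 at 4 weeks (adjusted p = 0.000142) and 3.53 ± 0.26 at 2 weeks (adjusted p = 0.000259). Socs2, another cytokine signalling inhibitor, was also higher in culture, at 7.97 and 8.26 against 7.06 and 6.48 in quiescent cells. At 2 weeks it was 1.22 ± 0.23 higher (limma adjusted p = 0.0190), a call lost without either 2-week array. A dimmer Socs2 probe set passed at neither (0.22 in culture, adjusted p over all probe sets = 0.611, and 0.46 at 2 weeks, 0.422). At 4 weeks 1 of the 16 rose and 3 fell (all genes: 4.04% and 4.67%), and at 2 weeks 2 rose and 2 fell (all genes: 2.34% and 2.43%). These counts turned on the quiescent arrays: without the first, 4 rose and 2 fell at 4 weeks and 4 rose and 0 fell at 2 weeks, and without the second, 1 rose and 7 fell at 4 weeks and 2 rose and 5 fell at 2 weeks. The 4-week count of falls was 1 without the first 4-week array, and the 2-week count was 0 without any 1 of the culture or CCl4 arrays.

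**Figure D4:**
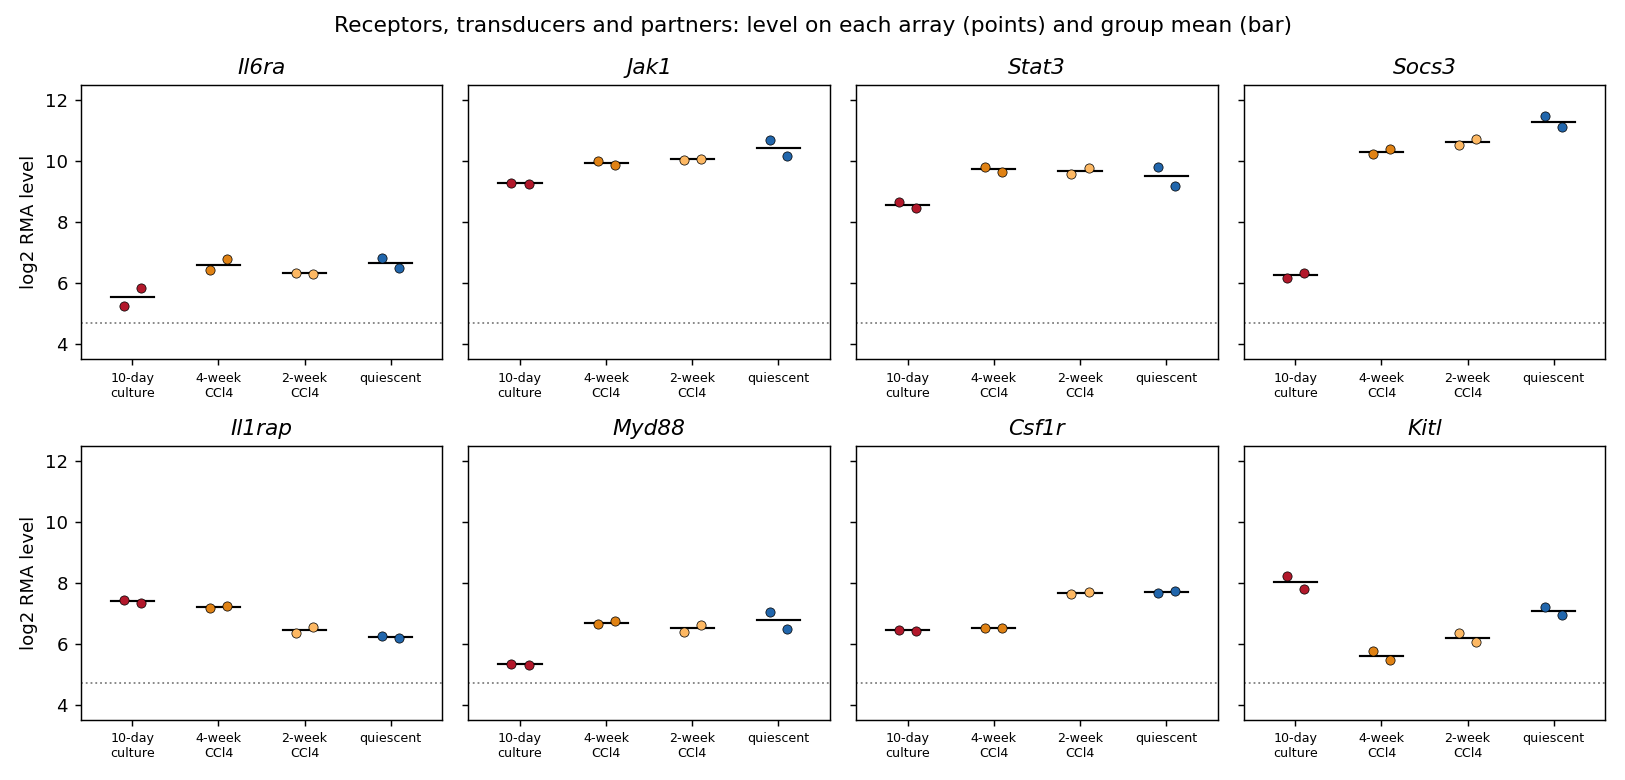
Log2 RMA level of 8 receptors, transducers and partner genes on each array (points) with the group mean (bar), for culture, 4-week CCl4, 2-week CCl4 and quiescent cells; the dotted line is the 95th percentile of the receptor guide genes. Socs3 is near 6 in culture and above 10 elsewhere, Csf1r is lower in culture and at 4 weeks, and Kitl is highest in culture and lowest at 4 weeks.

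Il33, the alarmin, was lower in culture than in all other groups. The arrays gave Il33 log2 levels of 4.91 and 5.28 in culture, 7.07 and 6.60 at 4 weeks, 6.65 and 6.72 at 2 weeks, and 7.49 and 6.86 in quiescent cells. Culture did not overlap any group, while 4-week cells overlapped both 2-week and quiescent cells. The culture levels were not far above the guide of 4.69. The log2 fold change in culture was -2.08 ± 0.24 (4.23-fold lower, limma adjusted p = 0.000334), and -1.67 ± 0.21 against CCl4 (adjusted p = 0.000585). Both calls held in all 8 fits that left out an array. It was -0.34 ± 0.24 at 4 weeks (adjusted p = 0.528) and -0.49 ± 0.24 at 2 weeks (adjusted p = 0.366). Of the 6 measured genes of the IL-33 axis, Il33 included, 2 fell and 1 rose in culture (all genes: 10.3% and 12.9%), and 1 rose at 4 weeks (all genes: 4.04%). Il1rap, the co-receptor, had 7.43 and 7.34 in culture, 7.16 and 7.24 at 4 weeks, 6.33 and 6.53 at 2 weeks, and 6.26 and 6.18 in quiescent cells. It rose by 1.17 ± 0.14 in culture (limma adjusted p = 0.000364) and 0.98 ± 0.14 at 4 weeks (adjusted p = 0.00346), and 2 other probe sets of Il1rap had means of 3.28 and 3.58, under the guide. Myd88, the adaptor of the receptor, changed by -1.44 ± 0.19 in culture (limma adjusted p = 0.000734). Il1rl1 was not analysed here.

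Csf1, the macrophage colony-stimulating factor, rose in culture and was called at neither CCl4 time. Csf1 reached log2 levels of 11.64 and 11.67 in culture, 9.54 and 9.69 at 4 weeks, 9.08 and 9.37 at 2 weeks, and 9.33 and 9.53 in quiescent cells. Both culture arrays lay above every other array, and 2-week and quiescent cells overlapped. Against quiescent cells it changed by 2.23 ± 0.15 in culture (4.68-fold, limma adjusted p = 1.72e-05), 0.18 ± 0.15 at 4 weeks (adjusted p = 0.616) and -0.21 ± 0.15 at 2 weeks (adjusted p = 0.591). Culture exceeded CCl4 by 2.24 ± 0.13 (limma adjusted p = 7.73e-06), which held in all 8 fits that left out an array.

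Il34, the other ligand of Csf1r, fell in every activated group. Its log2 level was 5.94 and 6.19 in culture, 7.98 and 8.07 at 4 weeks, 7.80 and 7.72 at 2 weeks, and 9.64 and 9.24 in quiescent cells. No groups overlapped. The log2 fold change was -3.37 ± 0.17 in culture (10.4-fold lower, limma adjusted p = 3.40e-06), -1.42 ± 0.17 at 4 weeks (adjusted p = 0.00169) and -1.68 ± 0.17 at 2 weeks (adjusted p = 0.00119). Culture was below CCl4 by -1.83 ± 0.15 (limma adjusted p = 4.66e-05). All of these calls held in the 8 fits that left out an array.

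Of the 7 measured myeloid growth factors, Csf1 and Il34 included, 2 rose and 1 fell in culture (all genes: 12.9% and 10.3%). At each CCl4 time 2 fell (all genes: 4.67% at 4 weeks and 2.43% at 2 weeks). Kitl, the ligand of the receptor Kit, was the other factor that changed. Its log2 level was 8.22 and 7.81 in culture, 5.76 and 5.46 at 4 weeks, 6.35 and 6.04 at 2 weeks, and 7.20 and 6.94 in quiescent cells, with no overlap between groups. It changed by 0.94 ± 0.20 in culture (limma adjusted p = 0.00880, lost without the first culture array, 0.0690), -1.47 ± 0.20 at 4 weeks (adjusted p = 0.00305) and -0.88 ± 0.20 at 2 weeks (adjusted p = 0.0430). The 2-week call was lost in 5 of 8 fits that left out an array (without either array of 2 or 4 weeks, or the first quiescent one). Csf2, a granulocyte-macrophage factor, and Csf3, a granulocyte factor, were not called. Csf2 had 4.85 and 5.12 in culture, 4.66 and 4.69 at 4 weeks, 4.92 and 4.76 at 2 weeks, and 5.0 and 4.48 in quiescent cells. Its other probe set had a mean of 3.38, under the guide, and Csf3 was under the guide on all arrays.

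Of 9 measured receptors for myeloid factors, 1 rose and 3 fell in culture (all genes: 12.9% and 10.3%). At 4 weeks 1 rose and 2 fell (all genes: 4.04% and 4.67%), and at 2 weeks 1 rose (all genes: 2.34%). Csf1r, the receptor of CSF1 and IL-34 and a macrophage marker, had log2 levels of 6.46 and 6.42 in culture, 6.53 and 6.53 at 4 weeks, 7.63 and 7.69 at 2 weeks, and 7.66 and 7.74 in quiescent cells. Culture and 4-week cells lay below the other groups without overlap. The macrophage list, to which it belongs as a marker, had a median log2 fold change of -1.77 in culture, -1.74 at 4 weeks and -0.27 at 2 weeks, and its part in this difference was not tested. Csf1r changed by -1.26 ± 0.13 in culture (limma adjusted p = 0.000148), -1.18 ± 0.13 at 4 weeks (adjusted p = 0.00100) and -0.04 at 2 weeks. Sdc1, which encodes the IL-34-binding proteoglycan syndecan-1, rose by 2.91 ± 0.38 at 4 weeks (limma adjusted p = 0.00258) and 2.13 ± 0.38 at 2 weeks (adjusted p = 0.0165), the 2-week call being lost without the first 2-week array (adjusted p = 0.147) and missed by a dimmer probe set (0.81, adjusted p over all probe sets = 0.284). Ptprz1, an IL-34 receptor in the brain, was called higher in culture (limma adjusted p = 0.000882), with log2 levels of 4.95 and 5.63 there, but all 6 other arrays lay under the guide, at 3.43 and 3.31 at 4 weeks, 3.58 and 3.5 at 2 weeks, and 3.30 and 3.80 in quiescent cells, so no fold is given. Kit changed in culture by -2.28 ± 0.38 (adjusted p = 0.00247). At 4 weeks Kit changed by -1.47 ± 0.38 (limma adjusted p = 0.0485), a call lost in 7 of 8 fits that left out an array (all but that without the second quiescent one).

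Between 4 and 2 weeks of CCl4, none of the 9 genes was called by limma, where 0.0857% of all genes were (0.0271% up and 0.0586% down). The smallest p-values belonged to Il11 and Csf1, both higher at 4 weeks but not called. The log2 difference was 0.69 ± 0.24 for Il11 (limma adjusted p = 0.483) and 0.39 ± 0.15 for Csf1 (adjusted p = 0.555). The largest remaining value was Il6 at -0.59 ± 0.33 (limma adjusted p = 0.736). Between culture and the mean of both CCl4 times, 1 of the 9 genes was higher in culture (Csf1) and 6 were lower (Lifr, Il34, Il33, Il6st, Osmr and Il11), against 21.3% of all genes (12.6% up and 8.72% down). Il6 and Lif were not called there, with Lif at 0.28 ± 0.21 (limma adjusted p = 0.439).

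Patterns most like each gene over the 8 arrays were ranked by Pearson's r among the 5934 genes with a range of at least 1 log2 unit; the arrays fall into groups, so these are descriptions. Lifr was most like Tgfbr3 (r = 0.999), Ets2 (0.997) and Ifih1 (0.997). For Il6st they were Rapgef5 (0.996), Cp (0.993) and Tmem176b (0.992), and for Osmr Isg20 (0.974), Med13l (0.968) and Spon1 (0.968). Il6 was most like Plpp5 (0.980), Hdlbp (0.979) and Ltbp2 (0.969), Lif like Vcpkmt (0.993), Csrp1 (0.990) and Gm5797 (0.980), and Il11 like Aoc1 (0.968), Hyou1 (0.968) and Vmn1r103 (0.964). Vmn1r103 is a vomeronasal receptor gene and so belongs to the 1394 guide genes used to judge background. Il33 was most like Ifitm2 (0.993), C6 (0.991) and Mtus1 (0.989), Il34 like Prrt1 (0.995), Abi2 (0.992) and Slc16a9 (0.991), and Csf1 like Pkp2 (0.997), Pde4dip (0.997) and Ttc13 (0.996).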

How the data were processed

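The deposited values are log2 levels from RMA, run by the authors; per the submitters' processing notes the program was Affymetrix Expression Console, without a version. Because RMA quantile normalizes the arrays jointly, it hides any shift common to most genes. Array medians ran from 4.63 to 4.72 log2 units. Per the labels' protocols, the RNA was preamplified. Probe sets with 1 symbol were used, and a gene's probe set with the highest mean over the arrays was kept, which left 22180 genes; a RefSeq table (GRCm38.p6) lacked 193 gene IDs and altered 0 symbols. No source here names the build of the array design.

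All 8 arrays entered a single limma 3.58.1 fit (R 4.3.3, eBayes, two-sided), with Benjamini-Hochberg adjusted p-values over all genes of a comparison and calls at an adjusted p under 0.05. The script was tested on simulated data. The number of arrays limits the precision. All 9 genes are named, with chosen partner genes, up to 4 genes per pathway list and comparison by smallest p, and the 3 most similar patterns of each member. Members and lists were chosen with earlier results of these data known. Alternatives covered the eBayes options, the replicate block, probe set choice, a filter on dim genes, centring, the arrays fitted and leaving out each array.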

Additional observations from a re-analysis of the deposited data

Results flagged for a closer look

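Csf1r differed between the CCl4 times, with a log2 difference of -1.13 at 4 weeks against 2 weeks (limma adjusted p = 0.0321). The call was lost in 6 of the 8 fits that left out an array, those without a CCl4 or a culture array (adjusted p from 0.0708 to 0.335). The macrophage list's median was 5.71 and 5.45 at 4 weeks and 7.45 and 7.76 at 2 weeks, and its part in the difference was not tested.

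Kitl moved in opposite directions in culture and in CCl4 cells relative to quiescent cells, and culture exceeded the mean of both CCl4 times by a log2 difference of 2.11 ± 0.17 (limma adjusted p = 5.17e-05). Against quiescent cells, the culture call was lost without the first culture array. The 2-week call was lost without either array of 2 or 4 weeks, or without the first quiescent array.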

How the results depend on the processing

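Beside the main values, 695 alternative values for single genes kept their direction and side of the threshold, 9 newly passed, 11 no longer passed and 5 reversed. The reversals came from leaving out 1 array: Il6 in culture against CCl4 (-0.10 without the first 4-week array, up to 0.40 without the second), Osmr at 4 weeks (-0.42) and 2 weeks (-0.64) without the second quiescent array, against 1.18 and 0.95 without the first, Il6st at 4 weeks (0.022 without the first quiescent array and -0.29 without the second), and Il33 at 4 against 2 weeks (-0.084 without the first 4-week array and 0.38 without the second); the cause was not tested. Genes called at 4 weeks (1932) became 1205 with only the groups compared and 652 to 2113 when an array was left out, and genes called at 2 weeks (1058) became 372 with only the groups compared, 441 with all probe sets tested and 260 to 1430. Between 4 and 2 weeks, 19 became 9 with the replicate block, 0 with all probe sets, 82 with only the groups compared and 0 to 85. Culture against CCl4 (4722) gave 2846 to 5225, and of the 9 genes 2 to 6 were called at 4 weeks (5 in the main fit). With the replicate block, Osmr in culture (limma adjusted p = 0.0417) and Lif at 2 weeks (adjusted p = 0.0208) passed, making 8 and 4 genes called. Between groups, the deviations of same-numbered arrays from their group means correlated across genes by -0.04 to 0.07. No strong shared effect of the replicate number was seen, but these values cannot settle whether the numbers pair the samples. The dim-gene filter also added these calls of Osmr and Lif, and testing all probe sets lost Osmr in culture against CCl4 (limma adjusted p = 0.0577).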
